A study of Mus musculus with 15 samples.

Results

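The 8 genes described here encode transcription factors known from the alpha, beta and delta cell lineages of the islet: Irx1, Irx2, Pou3f4, Mafa, Pdx1, Nkx6-1, Hhex and Pax4. They were chosen by gene symbol, as the rows bearing those names in a table of 38283 genes, and each symbol matched 1 row. RNA was sequenced from 15 samples of mouse islet cells separated by flow cytometry. There were 5 samples of alpha cells and 4 of beta cells, both from the Glu-Venus line, in which the proglucagon promoter drives the fluorescent protein Venus. Beta cells were gated from the Venus-negative cells, on their scatter and autofluorescence. The 6 samples of delta cells were from the Sst-CreXROSA26EYFP/EYFP line, in which Cre recombinase under the Sst promoter switches on EYFP. The strain of every sample was C57BL/6, no group received a treatment, and the age of the mice is not given in the sources used here. Each sample pooled islets of several mice, and the SD therefore describes pools, not single animals. Mouse line and cell type cannot be told apart in any comparison with delta cells. Values are FPKM, which scale the fragments of a gene to its transcript length and to the mapped reads of the sample. This allows levels to be set side by side between genes.

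An islet cell keeps its identity through a small set of homeodomain and leucine zipper factors that bind the promoters and enhancers of its hormone gene and secretory machinery. Alpha cells make glucagon, and Irx1, Irx2 and Pou3f4 are homeobox genes of the alpha cell programme. Beta cells make insulin, and Pdx1, Nkx6-1 and Mafa bind or maintain the insulin gene and the glucose-sensing machinery. Delta cells make somatostatin, and Hhex is required to maintain them, while Pdx1 activates the somatostatin gene as well as the insulin gene. Pax4 acts during endocrine development, where it favours the beta and delta lineages.

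The labels were checked against hormone and marker genes. Gcg, the glucagon gene, had mean levels of 273077, 636 and 515 FPKM in alpha, beta and delta cells. Ins2, an insulin gene, had a mean of 295241 FPKM in beta cells, 5534 in alpha cells and 5768 in delta cells. Sst, the somatostatin gene, had a mean of 163268 FPKM in delta cells, 1619 in alpha cells and 165 in beta cells. Every sample was highest in the marker set of its labelled cell type. Endothelial, immune and stellate markers each summed to at most 2.00 FPKM in any sample. The sum of 5 acinar markers ranged from 2.06 to 453 FPKM in delta cells, with maxima of 60.8 FPKM for alpha and 9.10 for beta cells. The sum of 4 ductal markers had maxima of 172 FPKM for alpha, 99.8 for delta and 24.2 for beta cells. The pancreatic polypeptide gene Ppy ranged from 17728 to 41392 FPKM in alpha cells and from 10857 to 48600 in delta cells, and from 16.9 to 98.1 in beta cells. The table gives no read totals. Single-read steps were resolved in 6 samples and implied 7.59 M to 30.2 M reads. No depth could be derived for the remaining 9. Summed over 79 ribosomal protein genes, the level was 64087 to 136824 in 6 samples (alpha 1, 2 and 3, beta 2, delta 1 and 2) and 7669 to 37889 in the other 9. The limma fit below was repeated in those 9 samples and with the ribosomal protein sum as a covariate. Results of these repeats are given for the factors described here and for counts over all genes. In such bulk samples, fewer cells of a type and less RNA per cell cannot be told apart.

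Of the 8 genes, 7 had a mean above 1 FPKM in at least 1 cell type and entered the fit of 14405 genes, and Pax4 did not. All 7 differed across the cell types (limma F-test on log2(FPKM + 1), Benjamini-Hochberg adjusted p under 0.05), where 16.0% of all genes tested did. The filter passes a gene on its highest cell type, so this count is a description of the 7 genes. In beta against alpha cells, 3 members were higher (Mafa, Pdx1 and Nkx6-1), against 2.84% of all genes, and 3 were lower (Irx1, Irx2 and Pou3f4), against 4.82%. In delta against alpha cells, 2 were higher (Pdx1 and Hhex), against 5.33% of all genes, and 3 were lower (Irx1, Irx2 and Pou3f4), against 1.48%. In delta against beta cells, 1 was higher (Hhex), against 11.7% of all genes, and 2 were lower (Mafa and Nkx6-1), against 2.99%. The comparisons share samples, so these counts are not separate pieces of evidence.

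**Figure D1:**
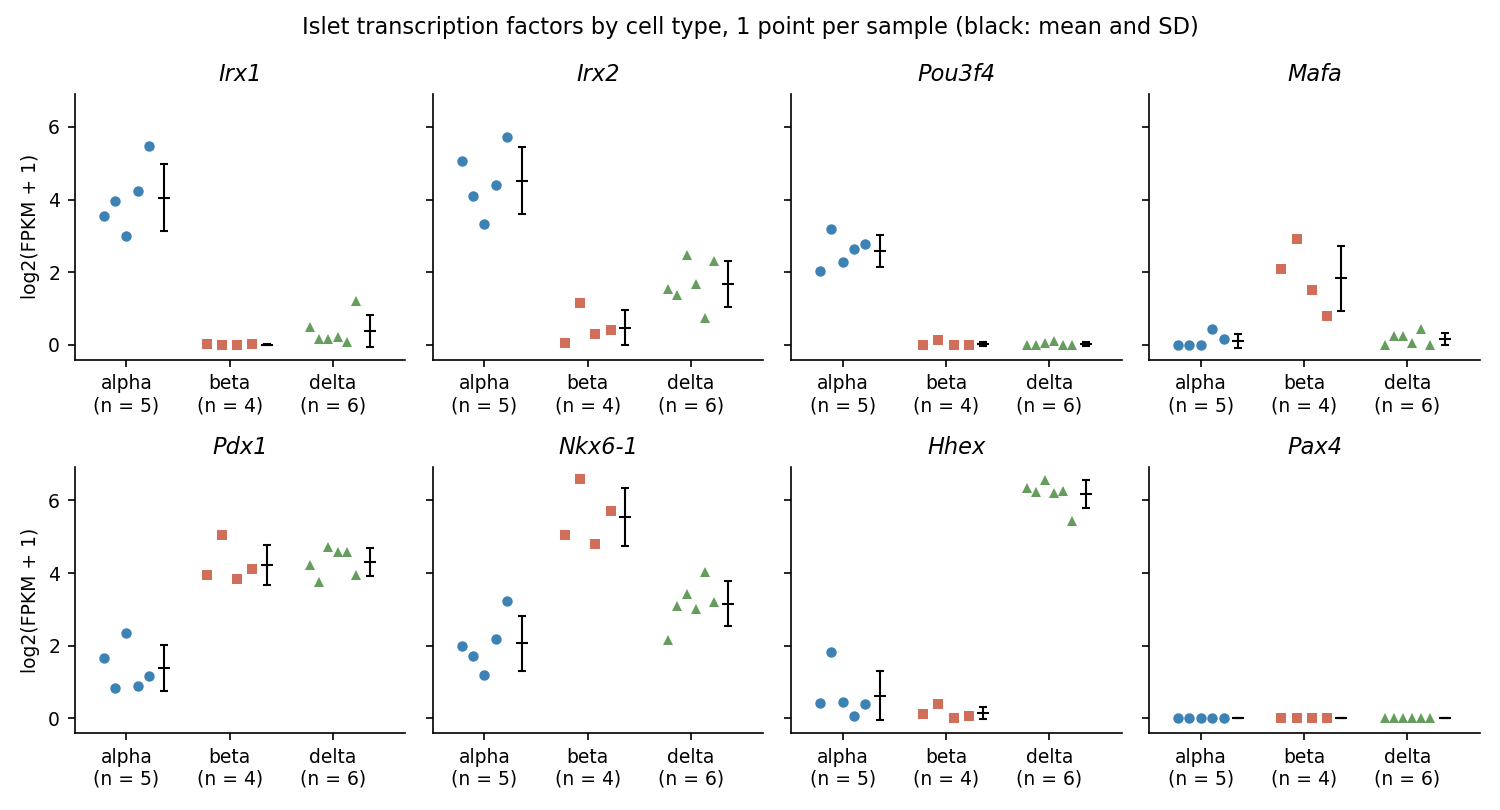
Level of each of the 8 transcription factors in every sample, as log2(FPKM + 1), by cell type (alpha n = 5, beta n = 4, delta n = 6); each point is 1 sample and black bars are mean and SD. Irx1, Irx2 and Pou3f4 are highest in alpha cells, Mafa and Nkx6-1 in beta cells, Hhex in delta cells, Pdx1 is high in both beta and delta cells, and Pax4 is at 0 in all 15 samples.

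Irx1 and Irx2 belong to the Iroquois family of homeobox genes and lie in one cluster on mouse chromosome 13. Irx1 occupies chr13:71957921-71963723 on the minus strand and Irx2 chr13:72628820-72634198 on the plus strand (GRCm38, GENCODE M21). Because the authors counted single reads of 50 nt, the coding stretch in which the pair is most alike was compared, to show how far such reads can tell them apart. It is part of the homeobox, coding bases 439 to 560 of Irx1 and 403 to 524 of Irx2, from the GENCODE M21 transcripts, and capitals mark the bases at which the genes differ.
Irx1: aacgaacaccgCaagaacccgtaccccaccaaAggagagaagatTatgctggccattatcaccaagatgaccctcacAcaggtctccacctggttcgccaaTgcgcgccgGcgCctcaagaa
Irx2: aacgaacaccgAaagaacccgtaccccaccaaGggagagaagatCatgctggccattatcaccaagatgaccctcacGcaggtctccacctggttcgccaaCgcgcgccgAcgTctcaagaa
Over these 122 nt the genes shared 115 bases (94.3%), and the longest identical run was 32 nt, shorter than a read. All 7 differing bases fell in different codons of the 40 whole codons, and none of the 7 changed the encoded amino acid. Over all annotated transcripts, none of the 2585 stretches of 50 nt in Irx1 occurred in another gene. In Irx2, 16 of 3324 such stretches (0.481%) occurred elsewhere, all in Irx5. Irx5 was listed at 0 in 14 samples and at 0.0795 FPKM in the other, an alpha cell sample.

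In alpha cells, Irx1 was at 10.8, 14.5, 7.07, 18.0 and 43.7 FPKM in samples 1 to 5. In beta cells it was at 0.00931, 0, 0.00698 and 0.00903 FPKM. In delta cells the lowest value was 0.0502, the median 0.143 and the highest 1.33 FPKM. Every alpha cell sample was above every delta cell sample, and every delta cell sample was above every beta cell sample. The means were 18.8 ± 14.5 FPKM (SD, n = 5) in alpha, 0.366 ± 0.487 (SD, n = 6) in delta and 0.00633 ± 0.00435 (SD, n = 4) in beta cells. On the log2(FPKM + 1) scale, which understates changes of low values, the difference of Irx1 in beta against alpha cells was -4.04 (SE 0.409, limma adjusted p = 8.41e-06). In delta cells the log2 difference from alpha cells was -3.66 (SE 0.369, limma adjusted p = 7.59e-06). Delta and beta cells were not separated by limma (log2 difference 0.38, 95% interval -0.45 to 1.21, adjusted p = 0.568), although their samples did not overlap (two-sided exact permutation test, p = 0.00952, the smallest that 4 against 6 samples can give). Depth was resolved in none of the beta cell samples, so no limit of detection is known for their values of at most 0.00931 FPKM. The level in delta cells was 1.95% of that in alpha cells by means and 0.988% by medians, since delta sample 6 was the highest of its group.

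Irx2 was at 32.3, 16.2, 9.01, 20.1 and 52.2 FPKM in alpha samples 1 to 5. The beta cell samples had 0.0377, 1.22, 0.232 and 0.330 FPKM. In delta cells Irx2 ranged from 0.678 to 4.53 FPKM with a median of 2.07. Alpha cells stood above both other cell types without overlap, while beta sample 2 lay above the lowest delta cell sample. The means were 26.0 ± 16.9 FPKM (SD, n = 5) in alpha, 2.48 ± 1.47 (SD, n = 6) in delta and 0.454 ± 0.523 (SD, n = 4) in beta cells. The log2 difference was -4.04 in beta against alpha cells (SE 0.466, limma adjusted p = 3.23e-05) and -2.83 in delta against alpha cells (SE 0.421, limma adjusted p = 3.33e-04). The order alpha, delta, beta was that of Irx1, and the difference between delta and beta cells was 1.21 (95% interval 0.26 to 2.16, limma adjusted p = 0.0839; two-sided exact permutation p = 0.0190). With a pseudocount of 0.1, with only the delta and beta samples, or with the 9 samples of low ribosomal protein sum, limma called this difference (lowest adjusted p = 0.0159). Irx2 was thus the alpha cell factor with the highest level outside alpha cells, at 9.57% of the alpha cell mean in delta cells, where Gcg was at 0.189%.

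The start of Irx2 faces the start of Gm20554, a long non-coding RNA gene on the opposite strand, with 256 nt between them. The sequence upstream of Irx2 is shown because transcripts on both sides of it were detected (RefSeq, GRCm38.p6, chr13:72628570-72628819, plus strand, GC content 68.4%), all in lower case since no motif is marked.
Irx2 upstream: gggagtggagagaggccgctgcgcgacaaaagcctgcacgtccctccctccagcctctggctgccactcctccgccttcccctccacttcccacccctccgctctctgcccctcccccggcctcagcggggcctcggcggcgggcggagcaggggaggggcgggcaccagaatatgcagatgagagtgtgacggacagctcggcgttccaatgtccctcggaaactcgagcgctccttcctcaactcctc
Gm20554 was at 1.94 to 5.81 FPKM in alpha cells, 0.265 to 0.672 in delta cells and 0 to 0.0714 in beta cells. Its means had the order of those of Irx2, with log2 differences of -2.19 in beta (limma adjusted p = 6.89e-05) and -1.79 in delta cells (limma adjusted p = 1.58e-04), both against alpha cells. Its mean in delta cells was 9.34% of that in alpha cells, and for Irx2 this was 9.57%. Within the alpha cells, the sample with the lowest Gm20554 (sample 4) had the third highest Irx2.

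Pou3f4, a POU-domain homeobox gene also called Brn4 that binds the glucagon gene, lies at chrX:110814280-110817207 (plus strand) with a single annotated transcript. It was at 3.10, 8.15, 3.86, 5.27 and 5.92 FPKM in alpha samples 1 to 5. In beta cells it was listed at 0 in 3 samples and at 0.0913 FPKM in sample 2. In delta cells it was listed at 0 in 4 samples and at 0.0368 and 0.0746 FPKM in samples 3 and 4. Pou3f4 was thus the least abundant of the 3 alpha cell factors in alpha cells and the one with the least relative spread there, with a mean of 5.26 ± 1.97 FPKM (SD, n = 5) and a coefficient of variation of 37.4%, against 76.9% for Irx1 and 65.2% for Irx2. The beta cell mean was 0.0228 ± 0.0456 FPKM (SD, n = 4) and the delta cell mean 0.0186 ± 0.0312 (SD, n = 6). Where depth could be resolved, 1 read corresponded to 0.0339 and 0.0360 FPKM and 3 reads to 0.102 and 0.108 FPKM in delta samples 1 and 2, both listed at 0. Against alpha cells the log2 difference was -2.56 for beta (SE 0.266, limma adjusted p = 1.13e-05) and -2.56 for delta cells (SE 0.241, limma adjusted p = 3.34e-06). Beta and delta cells did not differ beyond their spread (log2 difference -0.01, 95% interval -0.55 to 0.54). Of the 2879 stretches of 50 nt in the transcript, 23 (0.799%) also occurred in transcripts of other genes.

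Among the alpha cell samples, the ratio of Irx1 to Irx2 was between 0.335 and 0.898, with its lowest value in sample 1. Alpha sample 5 was the highest and alpha sample 3 the lowest for both Irx1 and Irx2, whereas for Pou3f4 sample 2 was highest and sample 1 lowest.

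**Figure D2:**
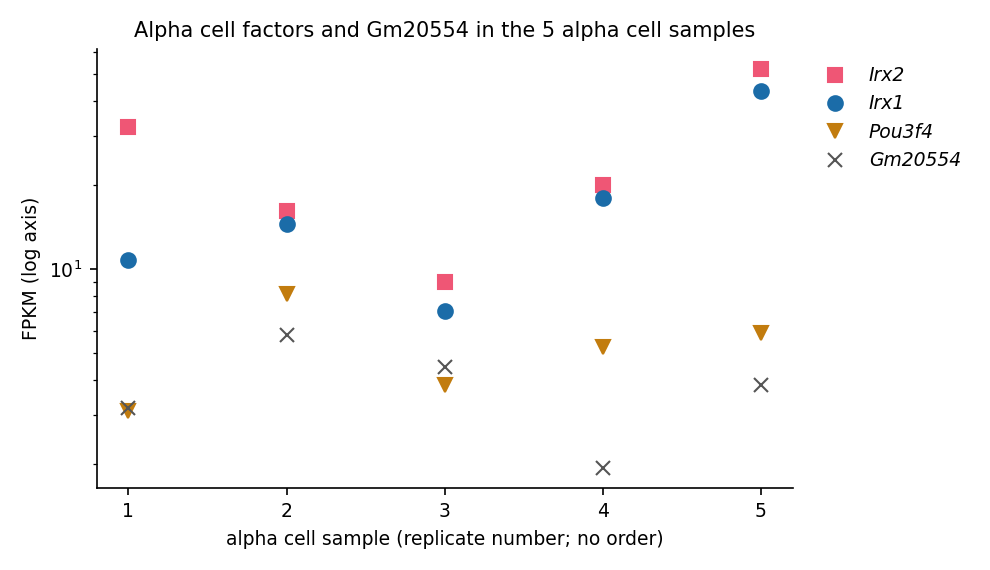
FPKM (log axis) of Irx1, Irx2, Pou3f4 and the non-coding gene Gm20554 in the 5 alpha cell samples; each symbol is 1 gene in 1 sample and the replicate numbers have no order. Irx1 (7.07 to 43.7 FPKM) and Irx2 (9.01 to 52.2 FPKM) are highest in sample 5, whereas Pou3f4 stays between 3.10 and 8.15 FPKM.

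Mafa, a leucine zipper factor of mature beta cells that binds the insulin promoter, occupies chr15:75745490-75748228 on the minus strand. It was at 3.30, 6.56, 1.88 and 0.743 FPKM in beta samples 1 to 4. In alpha cells it was listed at 0 in samples 1 to 3 and at 0.358 and 0.120 FPKM in samples 4 and 5. In delta cells it was listed at 0 in 2 samples, and the median was 0.111 and the highest value 0.347 FPKM. The beta cell samples lay above all others without overlap, and the narrowest gap was between 0.743 FPKM in beta sample 4 and 0.358 in alpha sample 4. The means were 3.12 ± 2.52 FPKM (SD, n = 4) in beta, 0.127 ± 0.138 (SD, n = 6) in delta and 0.0955 ± 0.156 (SD, n = 5) in alpha cells. A level of 3 reads corresponded to 0.156 FPKM in alpha sample 2 and 0.109 FPKM in delta sample 1. The log2 difference was 1.72 in beta against alpha cells (SE 0.355, limma adjusted p = 0.00681) and -1.67 in delta against beta cells (SE 0.342, limma adjusted p = 0.00347). Alpha and delta cells were not separated (log2 difference 0.04, 95% interval -0.64 to 0.72). In the 9 samples of low ribosomal protein sum, the log2 difference in beta against alpha cells was 1.17 and limma no longer called it (adjusted p = 0.109). That setting compared 3 beta with 2 alpha cell samples. It left out the 3 alpha cell samples at 0 and the highest beta cell sample, at 6.56 FPKM. Mafa had the lowest level in its own cell type of the 7 genes tested.

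Nkx6-1, a homeobox gene required for beta cell identity, occupies chr5:101658139-101664996 on the minus strand. It was at 32.4, 95.2, 26.8 and 51.2 FPKM in beta samples 1 to 4. In alpha samples 1 to 5 it was at 3.01, 2.32, 1.28, 3.55 and 8.37 FPKM. Delta cells ranged from 3.44 to 15.5 FPKM with a median of 7.91. Beta cells were above both other cell types without overlap, and the alpha and delta ranges overlapped. The means were 51.4 ± 31.0 FPKM (SD, n = 4) in beta, 8.60 ± 3.99 (SD, n = 6) in delta and 3.71 ± 2.74 (SD, n = 5) in alpha cells. The log2 difference was 3.47 in beta against alpha cells (SE 0.476, limma adjusted p = 1.92e-04) and -2.38 in delta against beta cells (SE 0.458, limma adjusted p = 0.00221). In delta against alpha cells it was 1.09 (95% interval 0.18 to 2.00), which did not pass adjustment over all genes (limma adjusted p = 0.180; two-sided exact permutation p = 0.0433). Nkx6-1 was at 16.7% of its beta cell mean in delta cells and at 7.21% in alpha cells, where Ins2 was at 1.95% and 1.87%. The share in delta cells was 10.6% for Iapp, 11.8% for Pcsk1 and 19.2% for Glp1r. It was 0.480% for G6pc2, 0.848% for Slc30a8, 1.07% for Slc2a2, 1.23% for Ucn3 and 2.08% for Ins1. Among these beta cell genes, only Glp1r had a larger share in delta cells than Nkx6-1.

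The spread of Nkx6-1 between the beta cell samples narrowed when the samples were brought to a common median. After each sample was divided by a median-ratio size factor, which ranged from 0.457 in beta sample 3 to 1.73 in beta sample 2, Nkx6-1 lay between 48.7 and 58.7 in all 4 beta cell samples (mean 52.9, SD 4.81). Before that division its coefficient of variation there was 60.4%. The SD of Pdx1 in beta cells went from 8.70 to 5.72 and that of Hhex in delta cells from 16.9 to 9.03 by the same division. In 5 other groups the SD widened: Irx1 in delta (0.487 to 0.580) and beta cells (0.00435 to 0.00694), Irx2 in delta cells (1.47 to 1.55), and Mafa (0.156 to 0.200) and Pdx1 (1.40 to 1.45) in alpha cells. The calls of all 7 members were kept under this scaling.

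**Figure D3:**
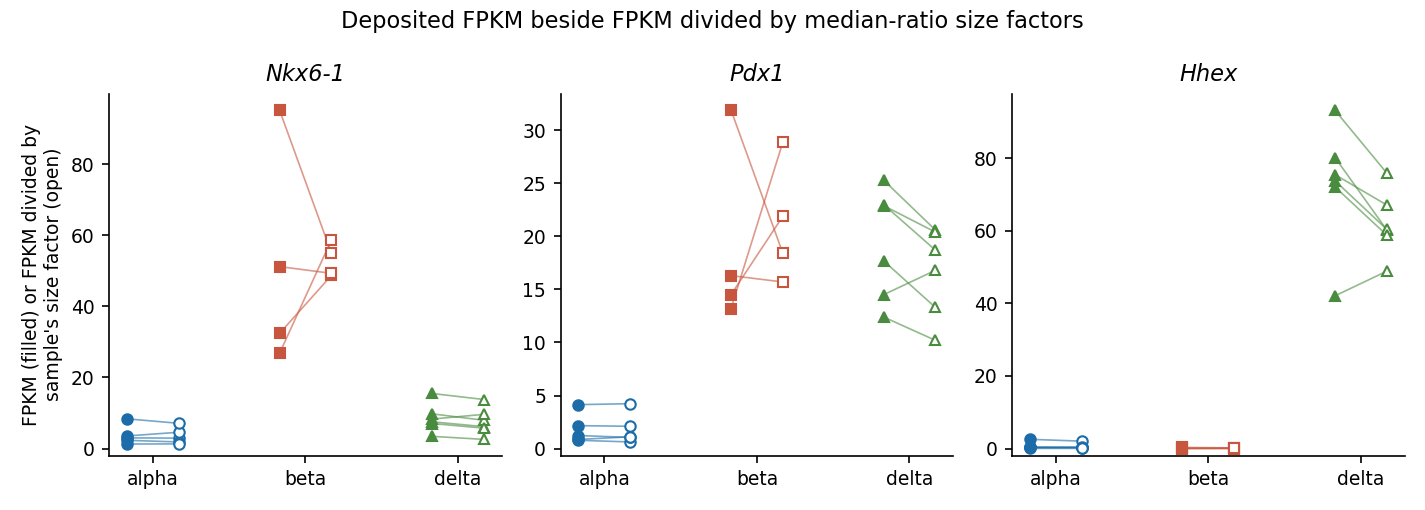
Nkx6-1, Pdx1 and Hhex in each sample as deposited (filled symbols, FPKM) and after division by the median-ratio size factor of the sample (open symbols), joined by a line for each sample. The 4 beta cell values of Nkx6-1 run from 26.8 to 95.2 as deposited and from 48.7 to 58.7 after division.

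Pdx1, a homeobox gene needed for pancreas formation and for insulin and somatostatin transcription, occupies chr5:147269959-147275848 on the plus strand. It was at 14.5, 31.9, 13.2 and 16.3 FPKM in beta samples 1 to 4. In delta cells it ranged from 12.4 to 25.3 FPKM with a median of 20.3. In alpha samples 1 to 5 it was at 2.16, 0.780, 4.14, 0.858 and 1.23 FPKM. Beta and delta cells overlapped and both lay above all alpha cell samples. The means were 19.3 ± 5.22 FPKM (SD, n = 6) in delta, 19.0 ± 8.70 (SD, n = 4) in beta and 1.83 ± 1.40 (SD, n = 5) in alpha cells. The log2 difference from alpha cells was 2.85 in beta cells (SE 0.384, limma adjusted p = 1.60e-04) and 2.92 in delta cells (SE 0.347, limma adjusted p = 3.71e-05). Between delta and beta cells it was 0.07 with a 95% interval of -0.72 to 0.85 (limma adjusted p = 0.939), which leaves room for a difference of either sign. Which of the pair had the higher mean changed with the scaling and with single samples left out. The balance of Nkx6-1 to Pdx1 separated them: its ratio was 2.03 to 3.14 in the 4 beta cell samples and 0.194 to 0.678 in the 6 delta cell samples.

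Plut, an antisense non-coding gene on the minus strand (chr5:147228596-147271521), overlaps the start of Pdx1. Whether the authors' counting used the strand of the reads is not given in the sources used here, so reads in the overlap could belong to either gene. Plut was at 9.80, 24.6, 3.94 and 10.5 FPKM in beta cells and at 1.16 to 3.62 in delta cells. In alpha cells it was at 14.2 FPKM in sample 1 and at 0 to 0.562 in the others. Plut was higher in beta than in alpha cells (log2 difference 2.48, limma adjusted p = 0.0351). In delta cells it had a mean of 2.04 FPKM against 12.2 in beta cells (log2 difference -1.93, limma adjusted p = 0.0581), whereas Pdx1 had like means in the pair.

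Hhex, a homeobox gene required for delta cell identity, occupies chr19:37434810-37440731 on the plus strand. It was at 80.2, 73.8, 93.2, 72.1, 75.5 and 42.1 FPKM in delta samples 1 to 6. In alpha samples 1 to 5 it was at 0.334, 2.55, 0.357, 0.0490 and 0.320 FPKM. In beta cells it was at 0.0845, 0.316, 0.00654 and 0.0458 FPKM. The lowest delta cell sample stood far above the highest sample of either other cell type, and alpha and beta cells overlapped. The means were 72.8 ± 16.9 FPKM (SD, n = 6) in delta, 0.721 ± 1.03 (SD, n = 5) in alpha and 0.113 ± 0.139 (SD, n = 4) in beta cells. The log2 difference was 5.54 in delta against alpha cells (SE 0.321, limma adjusted p = 4.62e-08) and 6.02 in delta against beta cells (SE 0.342, limma adjusted p = 2.56e-08). Beta and alpha cells were not separated (log2 difference -0.48, 95% interval -1.24 to 0.27, limma adjusted p = 0.444). Of all the genes tested, Hhex had the 3rd largest margin of its highest cell type over the next, measured as the smaller of its log2 differences to the other cell types. By the same measure Irx1 ranked 21, Irx2 46, Pou3f4 63, Nkx6-1 109, Mafa 282 and Pdx1 5579 of 14405. The pseudocount compresses low values, so these ranks also depend on abundance. As log2 ratios of mean FPKM against alpha cells, Pou3f4 was at -7.85 in beta and -8.15 in delta cells, and Irx2 at -5.84 and -3.39. In delta against beta cells this ratio was -4.61 for Mafa and -2.58 for Nkx6-1. Without the pseudocount, Pou3f4 thus had a larger margin than Irx2, and Mafa than Nkx6-1.

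Pax4 (chr6:28442334-28449353, minus strand) had a value of 0 in each of the 15 samples, and was the only one of the 8 factors at 0 throughout. The lowest value that any of 12 housekeeping genes took in any sample was 0.159 FPKM. None of the 1529 stretches of 50 nt in the transcripts of Pax4 occurred in another gene. The table gives no depth for 9 of the samples, so no limit of detection can be set across the series for Pax4. A value of 0 can also stand for an estimate that failed in Cufflinks, and the table does not tell this from an absence of reads.

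**Figure D4:**
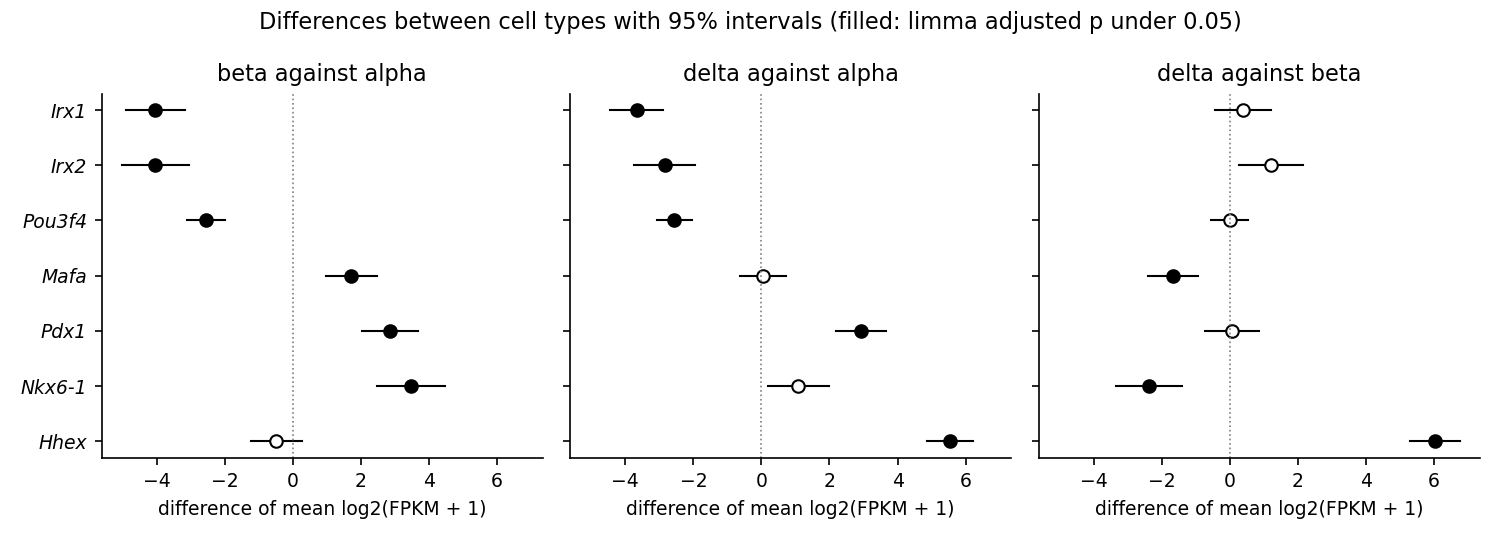
Difference of mean log2(FPKM + 1) between cell types for the 7 genes tested, with 95% intervals from limma over all 15 samples; filled points have an adjusted p under 0.05. Irx1, Irx2 and Pou3f4 lie below 0 against alpha cells, Hhex lies above 0 only where delta cells are compared, and Pdx1 lies at 0.07 between delta and beta cells.

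The levels outside the main cell type were set beside those of genes known to mark it. For Hhex the mean was 0.991% of the delta cell mean in alpha cells and 0.155% in beta cells. For Sst these were 0.992% and 0.101%, and for Ghsr, the ghrelin receptor gene, 1.35% and 0.184%. Rbp4, the remaining delta cell marker, was at 45.9% and 0.330%. Alpha sample 2 held most of the Hhex in alpha cells, and by medians the share there was 0.447% for Hhex and 1.28% for Sst. These shares were not tested against each other. For Mafa the share was 3.06% in alpha and 4.08% in delta cells, and for Slc2a2, the glucose transporter gene of beta cells, 0.779% and 1.07%. For Irx1 the share was 0.0336% in beta cells and 1.95% in delta cells. Pdx1 in alpha cells was at 9.49% of its delta cell mean. Carry-over of RNA from other cells as a source of these values was not tested.

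**Figure D5:**
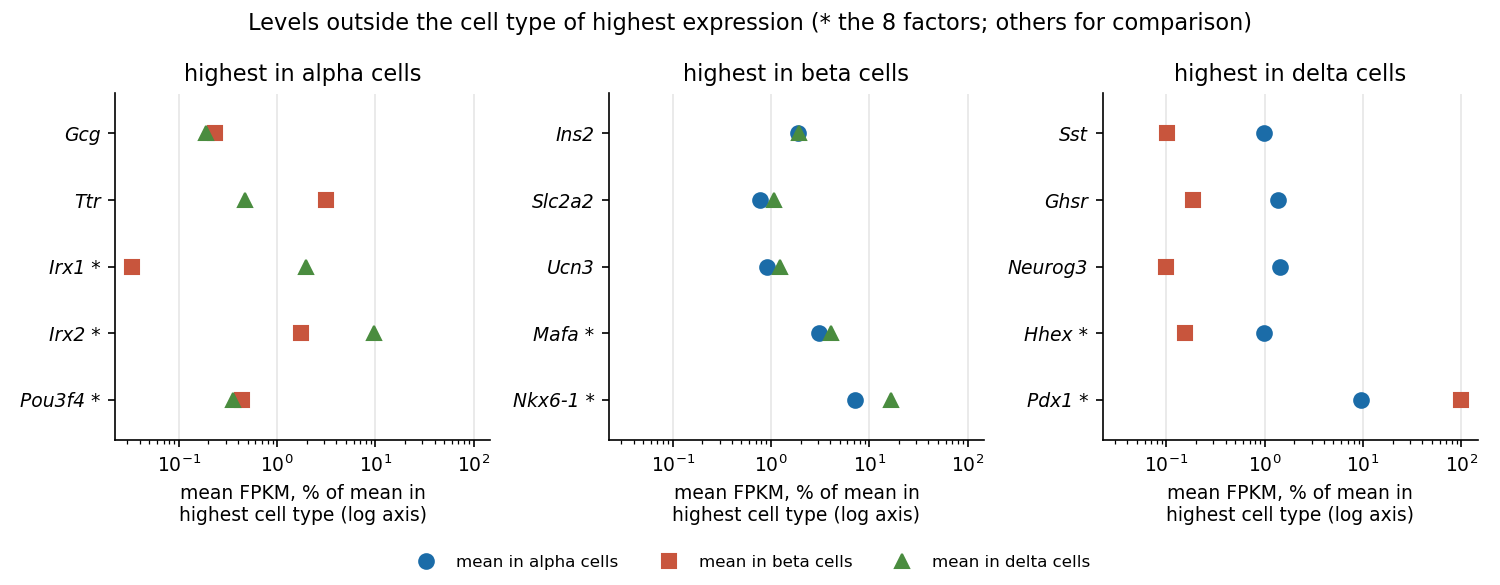
Mean FPKM outside the cell type of highest expression, as a percentage of the mean in that cell type (log axis), for 7 of the 8 transcription factors (asterisks) and for hormone, transporter, receptor and factor genes of the same cell types; symbols give the cell type of the mean. Hhex is at 0.991% in alpha cells, where alpha sample 2 sets most of the mean, and Irx2 in delta cells (9.57%), Nkx6-1 in delta cells (16.7%) and Pdx1 in alpha cells (9.49%) lie above Gcg, Ins2 and Sst.

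The genes whose levels followed each factor most closely over the 15 samples were listed by Pearson correlation of log2(FPKM + 1). The samples fall into 3 cell types and share their libraries, so the values are descriptions, and r after removing the cell type means is given second. Among the 3 genes most like Irx1 were Mamld1 (r = 0.98, 0.79 within cell types) and Pdk4 (0.98, 0.88). Irx2 was most like Ntn4 (0.95, 0.80), then Mfap2 and Mamld1. Pou3f4 was most like Avpr1b, a vasopressin receptor gene (0.98, 0.58), then Pdk4 and Galnt13, whose r within cell types fell to 0.19 and 0.11. Mafa was most like Rnf182 (0.98, 0.94), then Ovol2 and Mcoln3. Nkx6-1 was most like Ttc28 (0.97, 0.83), then Ntrk2 and Gpr158. Pdx1 was most like Kcnip1, a potassium channel interacting protein gene (0.96, 0.67), which had 24.4 FPKM in beta, 17.8 in delta and 1.32 in alpha cells, then Frzb and Cabp1. Hhex was most like Cer1, which encodes a secreted antagonist (1.00, 0.87), at 11.3 FPKM in delta, 0.347 in alpha and 0.0435 in beta cells, then Hspb1 and Cidea.

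Of 21 close relatives of the 8 factors, 9 were at 0 in all samples, among them Irx3, Irx4 and Irx6. The highest value among those that did not pass the filter was 0.511 FPKM, for Nkx6-3 in an alpha cell sample. Of those that passed, Pax6, a pan-endocrine factor, had means of 101, 72.9 and 62.3 FPKM in alpha, beta and delta cells, and Nkx6-2 of 0.566, 0.579 and 1.13, with no call for either.

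Of 30 other islet transcription factors, 26 passed the filter and 11 differed across the cell types, where 16.0% of all genes tested did. In beta against alpha cells 1 was higher (Mnx1) and 4 were lower (Etv1 and Gata6 among them), with a median log2 difference of -0.41 over the list and -0.13 over all genes. Over all genes tested, 2.84% were higher and 4.82% were lower. Mnx1, a homeobox gene of beta cells, was at 1.61 FPKM in beta and 0.0718 in alpha cells (log2 difference 1.21, limma adjusted p = 0.0161). Etv1 was at 126 FPKM in alpha and 7.06 in beta cells, with 69.0 in delta cells, so that beta cells were the low group. Gata6 had the same shape, at 5.31, 0.340 and 5.72 FPKM in alpha, beta and delta cells.

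In delta against alpha cells 5 of these factors were higher (Neurog3, Hnf4a, Insm1, Sox9 and Lmx1b) and 2 were lower, with medians of 0.47 over the list and 0.13 over all genes. The shares over all genes tested were 5.33% higher and 1.48% lower. In delta against beta cells 6 were higher (Neurog3, Etv1, Gata6, Hnf4a and Sox9 among them) and 2 were lower (Neurod1 and Mnx1), with medians of 0.68 and 0.30. The shares over all genes tested were 11.7% higher and 2.99% lower. Neurog3, the factor that commits progenitors to the endocrine fate, was at 18.4 to 52.5 FPKM in all 6 delta cell samples (mean 31.9 ± 13.1, SD). It was at 0.0811 to 0.869 FPKM in alpha cells and at 0 to 0.0985 in beta cells. The log2 difference was 4.44 against alpha cells (limma adjusted p = 8.35e-08) and 4.91 against beta cells (limma adjusted p = 7.65e-08). Hnf4a, a nuclear receptor, was at 12.7 FPKM in delta, 2.66 in alpha and 2.46 in beta cells. Sox9, a ductal and progenitor factor, had a mean of 1.29 FPKM in delta cells, 0.00229 in alpha and 0.00844 in beta cells. The summed ductal markers, Sox9 among them, were at 19.7 to 99.8 FPKM in delta cells and at 25.3 to 172 in alpha cells, and Krt19 was at 0 in all delta cell samples. Krt7 had means of 11.7 FPKM in delta, 9.36 in alpha and 7.73 in beta cells, and Spp1 of 26.3, 54.8 and 9.05. Carry-over from ductal cells was not tested.

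Of 12 genes of the Mafa, Pdx1 and Nkx6-1 programme, 8 were called higher in beta against alpha cells and none was lower, against 2.84% and 4.82% of all genes tested. The median log2 difference of the 12 was 5.31 in that comparison, 0.75 in delta against alpha and -4.04 in delta against beta cells, and over all genes it was -0.13, 0.13 and 0.30. Ins1, Ins2, Iapp, Slc2a2 and Ucn3 among the 12 are also the beta cell markers used above to check the labels. Their direction was known beforehand, so the counts for this list are descriptions. Slc2a2 had 236 FPKM in beta and 1.84 in alpha cells, and Ucn3, which encodes urocortin 3, had 429 and 3.89. In delta against alpha cells 3 of the 12 were higher (Glp1r, Pcsk1 and Iapp) and 1 was lower (Slc30a8), against 5.33% and 1.48% of all genes. Glp1r, the GLP-1 receptor gene, was at 39.8 FPKM in delta, 207 in beta and 2.36 in alpha cells. Pcsk1, the proinsulin convertase gene, was at 16.3, 138 and 1.05 FPKM and Iapp, which encodes amylin, at 4352, 40951 and 651 FPKM in the same order. In delta against beta cells 9 of the 12 were lower and 1 was higher, against 2.99% and 11.7% of all genes. The higher one was Kcnj11, a subunit gene of the ATP-sensitive potassium channel (28.2 against 10.2 FPKM). Abcc8, the other channel subunit gene, was not called in any comparison. Slc30a8, a zinc transporter gene, was at 259 and 277 FPKM in alpha and beta cells and 2.35 in delta cells.

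Of 4 genes of the alpha cell programme, Gcg and Ttr were among 3 that were lower in both other cell types, and Pcsk2, the convertase gene that alpha cells use for proglucagon, was not called (368, 215 and 268 FPKM in alpha, beta and delta cells). Over all genes tested, 4.82% were lower in beta and 1.48% in delta cells, both against alpha cells. Of 3 genes set beside Hhex and Pdx1, Sst and Ghsr were higher in delta than in both other cell types. Rbp4, which encodes a retinol carrier, had 1426 FPKM in delta, 655 in alpha and 4.71 in beta cells, and was called against beta cells alone (log2 difference 8.22, limma adjusted p = 2.07e-07).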

How the data were processed

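The members and the gene lists were chosen with earlier results of these data known. The authors amplified the RNA (NuGEN Ovation V2), sequenced single reads of 50 nt, aligned them to GRCm38 with TopHat and deposited Cufflinks 2.2.1 FPKM values per gene. The aligner's version differs between the sources (TopHat2 2.0.8 in the submitters' processing notes), and the annotation release is not given in the sources used here. The authors compared read counts with edgeR; those counts were not used here, so no count test was run.

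Here log2(FPKM + 1) of all 15 samples was fitted with limma 3.58.1 (R 4.3.3, eBayes with trend), a mean per cell type, and Benjamini-Hochberg adjustment over the 14405 genes above 1 FPKM in at least 1 cell type. Calls have an adjusted p under 0.05. Single genes were also tested by two-sided exact permutation (SciPy 1.17.1, 21 comparisons, unadjusted); the smallest p possible was 0.0159, 0.00433 and 0.00952 for beta against alpha, delta against alpha and delta against beta cells. The fit was also run on simulated data, and the outcome is not reported here. Sequences of 50 nt, gene models and distances come from GENCODE M21, in which 36341 of 38283 genes matched; 5 of the 8 genes had a RefSeq promoter entry. Protein sequences were not used here. Reads per sample were judged from single-read steps in 5024 genes with 1 transcript. Named genes were the 8 factors, called genes of the lists with the largest differences (up to 3 per list, comparison and direction) and all of any 5 or fewer counted, the 3 most correlated genes of each factor, genes overlapping or next to a factor, and markers. Pooled mice make each sample; nothing says which samples share a sort. Alternatives were other pseudocounts, filters, scalings, thresholds, sample sets, a ribosomal covariate, a replicate block and leaving out each sample. Some genes of the lists are counted there but are not reported here by name.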

Additional observations from a re-analysis of the deposited data

Results flagged for a closer look

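In 21 groups of 4 to 6 samples (7 factors in 3 cell types), 3 held a sample far from the rest by Dixon's criterion, which chance meets in about 1 of 20 groups. Hhex in alpha sample 2 was at 2.55 FPKM, and its gap to the next sample was 0.789 of the range of the alpha cells. Hhex in delta sample 6 was at 42.1 FPKM, the lowest of its group, with a gap of 0.676 of the range. After division by size factors the lowest delta cell value was 48.9. Pou3f4 in beta sample 2 was at 0.0913 FPKM, and the other 3 beta cell samples were listed at 0. With 3 tied values the criterion is met by any value above 0, so this is no sign of an unusual sample.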

How the results depend on the processing

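Among 522 values of the 7 factors under the alternatives, 518 kept their side of the threshold, and no called difference changed sign. Uncalled differences near 0 did change sign: Pdx1 in delta against beta cells ran from -0.34 to 0.49, Mafa in delta against alpha cells from -0.12 to 0.29 and Pou3f4 in delta against beta cells from -0.09 to 0.04. The exceptions were the Irx2 difference between delta and beta cells, gained under 3 settings, and the Mafa difference between beta and alpha cells, lost (1.17, adjusted p = 0.109) in the 9 samples under a ribosomal protein sum of 50000, a setting chosen after seeing the data. For Mafa that setting compared 3 beta with 2 alpha cell samples. A filter of 5 FPKM left Mafa untested. With size factors, 8 other islet factors were called in beta against alpha cells against 5 as reported. Leaving out each sample in turn changed no call of a factor: Mafa ran from 1.36 to 2.06 in beta against alpha cells and Nkx6-1 from -2.63 to -2.03 in delta against beta cells. The causes were not tested. As log2 ratios of mean FPKM, with no pseudocount and no test, differences that involve means under 1 FPKM were larger: in beta against alpha cells -11.54 for Irx1, -5.84 for Irx2, -7.85 for Pou3f4 and 5.03 for Mafa, and in delta against beta cells 9.33 for Hhex and -4.61 for Mafa.

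Calls over all genes moved more. From 1104 in beta against alpha cells they went to 2078 with size factors, 1970 with quantile normalization, 2399 with the ribosomal covariate, 520 with only those samples, 461 at an adjusted p under 0.01, and 702, 696, 1698 and 651 without alpha replicate 2 and beta replicates 1, 2 and 4. From 981 in delta against alpha cells they went to 1731 with the covariate, 518 with a filter of 5 FPKM, 567 at 0.01 and 629 in the 9 samples. From 2114 in delta against beta cells they went to 3454, 1319 and 1045 under the covariate, the filter and 0.01, and from 2301 across cell types to 4234, 1450 and 1210. Size factors, which bring the median difference from -0.13 and 0.30 to near 0, changed the split of higher and lower calls from 409 and 695 to 1096 and 982 in beta against alpha cells, and from 1683 and 431 to 1378 and 1300 in delta against beta cells.

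The deviations of same-numbered samples had a mean correlation of 0.0761 over 13 pairs (5 above 0.1), against -0.0161 over the other pairs. Such a correlation cannot tell whether same-numbered samples share a sort, so pairing stays unknown. With the replicate block, calls were 1227, 831 and 2001 in the 3 comparisons and no call of a factor changed. Among factors with 1 transcript, 3 reads corresponded to as much as 0.202 FPKM where depth was resolved (Pdx1 in alpha sample 2). Depth thus limits values under about 0.2 FPKM, and it is unknown in 9 samples.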

Other observations

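Ide, 97.0 kb from Hhex, was at 40.0 FPKM in beta, 14.1 in alpha and 12.3 in delta cells, with a call in delta against beta cells (log2 difference -1.43, limma adjusted p = 0.0356). Exoc6, 109.7 kb away on the other side, was at 20.1 FPKM in alpha, 15.7 in delta and 4.56 in beta cells, lower in beta than in alpha cells (log2 difference -1.83, limma adjusted p = 0.0250) and higher in delta than in beta cells (1.71, limma adjusted p = 0.0170). Neither followed the order of Hhex. Cds1, 100.1 kb from Nkx6-1, was highest in delta cells (4.47 FPKM, against 2.32 in beta and 0.880 in alpha cells). It was called in delta against alpha cells (log2 difference 1.54, limma adjusted p = 8.55e-04), where Nkx6-1 was not. Polr1d and Pan3, 158.4 and 154.3 kb from Pdx1, were called in no comparison.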
